A study of Mus musculus with 2 samples.

Results

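The Ms4a genes Ms4a4b, Ms4a6b and Ms4a4c were followed across the receptor chain groups of lung γδ T cells. They were taken by gene symbol from the deposited count matrices, and are 3 of the 19 genes whose symbol begins with Ms4a and of 32285 genes counted in all. The rule used the symbols and no measured value, although earlier results of these data were known. All 3 genes were found in both libraries, although Ms4a4c gave few molecules.

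Ms4a genes encode a family of small proteins that span the cell membrane several times. The best known member is Ms4a1, which encodes the B cell antigen CD20, and other members are used by monocytes, macrophages and mast cells. Ms4a4b is a T cell member whose protein has been described at the surface beside GITR, the costimulatory receptor encoded by Tnfrsf18, and which restrains proliferation when T cells are stimulated. Ms4a6b is likewise known from T cells, whereas Ms4a4c, like its neighbour Ms4a6c, is also known from monocytes.

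The 3 genes lie in 1 stretch of mouse chromosome 19 on the plus strand (build GRCm38, GENCODE M21 annotation). Ms4a4c (ENSMUSG00000024675) spans chr19:11404770-11427246, Ms4a4b (ENSMUSG00000056290) spans chr19:11443553-11467055, and Ms4a6b (ENSMUSG00000024677) spans chr19:11516512-11531256. Between the last pair lies Ms4a6c (ENSMUSG00000079419, chr19:11469366-11482192). All 4 are annotated as protein coding. The stretches before the annotated RefSeq starts are printed because they show which genes are near copies of each other: Ms4a4b resembles Ms4a4c, and Ms4a6b resembles Ms4a6c. Bases are from RefSeq, plus strand, GRCm38.p6, 5′ to 3′, and run from 250 bases before each start up to the first annotated exon or the start. The positions are chr19:11443308-11443552 for Ms4a4b, chr19:11407411-11407660 for Ms4a4c, chr19:11518309-11518452 for Ms4a6b and chr19:11469118-11469365 for Ms4a6c. Capitals mark runs of at least 8 bases that are identical within each pair.
Ms4a4b: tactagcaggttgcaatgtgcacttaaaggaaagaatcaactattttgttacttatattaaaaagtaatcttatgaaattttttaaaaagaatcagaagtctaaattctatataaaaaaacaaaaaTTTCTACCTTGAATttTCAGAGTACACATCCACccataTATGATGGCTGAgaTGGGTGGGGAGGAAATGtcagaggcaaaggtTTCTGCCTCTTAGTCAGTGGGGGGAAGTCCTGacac
Ms4a4c: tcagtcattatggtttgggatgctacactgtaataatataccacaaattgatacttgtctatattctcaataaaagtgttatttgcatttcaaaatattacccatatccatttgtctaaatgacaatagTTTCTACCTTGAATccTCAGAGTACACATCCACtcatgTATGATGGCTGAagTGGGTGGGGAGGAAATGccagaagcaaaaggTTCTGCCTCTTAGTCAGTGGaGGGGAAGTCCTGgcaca
Ms4a6b: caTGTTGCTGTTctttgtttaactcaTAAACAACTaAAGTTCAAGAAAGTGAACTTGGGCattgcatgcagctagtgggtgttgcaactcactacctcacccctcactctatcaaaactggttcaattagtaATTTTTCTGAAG
Ms4a6c: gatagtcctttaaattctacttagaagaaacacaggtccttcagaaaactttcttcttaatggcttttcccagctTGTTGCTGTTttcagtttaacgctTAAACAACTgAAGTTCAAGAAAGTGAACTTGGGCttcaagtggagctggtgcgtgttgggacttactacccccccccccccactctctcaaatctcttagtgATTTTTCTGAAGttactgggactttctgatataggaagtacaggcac

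Ms4a4b and Ms4a4c aligned over 191 bases of these stretches, of which 159 (83.2%) were identical, with 6 such runs and a longest run of 20 bases. Ms4a6b and Ms4a6c aligned over 136 bases with 112 identical (82.4%), 4 runs and a longest run of 24 bases. The Ms4a4c and Ms4a6b stretches lie inside longer GENCODE transcripts of the same genes, outside their exons, whereas the other two lie outside annotated transcripts. Short motif spellings were searched on both strands of the whole 250 bases, and in the same window of 27025 genes. The ETS spelling AGGAAG was present 3 times in the Ms4a6b window and 1 time in that of Ms4a6c. It was absent from those of Ms4a4b and Ms4a4c, and 29.2% of all windows held it. The printed Ms4a6b stretch holds none of its 3 matches. They involve the 106 bases of that window that are not printed, which begin at an annotated exon of the gene. The interferon response spelling GAAANNGAA was present 1 time before each of Ms4a6b and Ms4a6c (7.16% of windows). The RUNX spelling TGTGGT was found before Ms4a4c alone of these 4 genes (14.2% of windows). Neither the TCF spelling CTTTGA (14.1% of windows, counting both strands) nor the STAT spelling TTCNNNGAA (7.18%) was found in any of the 4 windows. The likeness extends into the transcripts: of all 50-base stretches of annotated Ms4a4b transcripts, 2.40% also occur in transcripts of another gene, as against 3.57% for Ms4a6b and 8.19% for Ms4a4c. The counts of Ms4a4c are therefore uncertain to the extent that its reads could fall in the sequence it shares with Ms4a4b.

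The cells came from lungs of mice that were uninfected and 5 to 7 weeks old, in 2 droplet libraries with 1 library per group. Those of the WT group were Vγ1- T cells of C57BL/6NCrl mice. Those of the KO group were Vγ1+ T cells of B6.Cg-Tcrgtm1lku(B6.Vg4-/-Vg6-/-) mice, in which the Tcrg-V4 and Tcrg-V6 segments are deleted. The number of pooled animals is not given. Sort, genotype and library differ together, so their parts in any difference cannot be told apart, and no difference between the libraries has a replicate check. All intervals below are 95% intervals that cover counting error only.

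After filtering, 2505 WT and 6634 KO cells remained, with medians of 3288 and 3521 UMIs (unique molecules) per cell. The deposited barcode lists of the 2 libraries had 23 barcode sequences in common, and reads were not examined. The targeted genes were examined first. Tcrg-V6 had UMIs in 30.1% of the WT cells and in 0 of the 6634 KO cells, a count that allows at most 0.0452%. Tcrg-V1 UMIs were seen in 7.82% of the WT cells and 43.4% of the KO cells. Tcrg-V4, by contrast, had UMIs in 21.4% of the WT cells and still in 14.9% of the KO cells, which goes against the KO label, so that library is called the library labelled KO throughout. Among cells with B cell or myeloid markers and no Cd3 or Trdc UMI, 1.67% of the 60 from WT and 0 of the 30 from the library labelled KO had a Tcrg-V4 UMI (medians of 2479 and 2302.5 UMIs). At least 1 of the 4 γδ T cell markers Trdc, Cd3e, Cd3d and Cd3g had a UMI in 90.9% of cells in WT and in 96.5% in the library labelled KO. Cells with UMIs of at least 2 of 6 B cell markers made up 2.20% and 1.48%, and cells with at least 2 of 9 myeloid markers 3.55% and 1.43%, with no marker on either list at 0. The summed level of the myeloid list was 736 UMIs per 1000000 in WT and 244.9 in the library labelled KO, that of the B cell list 129.7 and 93.6.

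Ms4a4b and Ms4a6b were abundant in both libraries and higher in the library labelled KO, whereas Ms4a4c was scarce and near the depth limit. Ms4a4b ranked 317th by UMIs among the genes seen in WT and 164th in the library labelled KO. The WT sum of Ms4a4b was 3923 UMIs, which is 437 counts per 1000000 UMIs (CPM; interval 424 to 451), and the KO-labelled sum was 20334 UMIs, which is 785 CPM (774 to 796), a log2 ratio of 0.84 (0.79 to 0.89). For Ms4a6b the sums were 1788 UMIs (199 CPM) and 10612 UMIs (409.6 CPM), a log2 ratio of 1.04 (0.97 to 1.11). Ms4a6b was the 1 member of 3 at least 2-fold higher, as were 2.94% of 12275 genes tested. Over those genes the median log2 ratio was 0.02.

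The higher sums went with more cells in which the genes were detected. Ms4a4b had a UMI in 46.9% of the cells in WT and 72.3% in the library labelled KO, and Ms4a6b in 34.1% and 60.6%. When each cell was cut to 2000 UMIs by random draw (380 shallower cells of WT and 828 of the library labelled KO dropped out), these shares were 39.3% and 64.6% for Ms4a4b and 25.7% and 48.6% for Ms4a6b. Cells with many molecules were more frequent too: thinned cells with 4 or more Ms4a4b UMIs made up 6.07% in WT and 14.8% in the library labelled KO. As a background, cells with B cell markers and no Cd3 or Trdc UMI held no Ms4a4b UMI in 26 WT cells (median 2053 UMIs), where a count of 0 allows at most 11.5%, and 1 UMI in 12 KO-labelled cells (median 2588.5). Cells with myeloid markers and no Cd3 or Trdc UMI held Ms4a4b UMIs in 5.88% of the 34 from WT and none of the 19 from the library labelled KO. Ms4a6b differed here: it was found in 41.2% and 21.1% of those myeloid-marker cells, at 206 and 257 CPM.

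Ms4a4c followed another course, and its ratio turned with the cells that were kept. Its sums were 116 UMIs in WT, at 12.9 CPM (10.7 to 15.5), and 210 UMIs in the library labelled KO, at 8.11 CPM (7.05 to 9.28), a log2 ratio of -0.67 (-1.01 to -0.33). Cells with at least 2 B cell or 2 myeloid markers, 5.63% of the cells in WT and 2.88% in the library labelled KO, held 50.9% of the WT and 10.0% of the KO-labelled Ms4a4c UMIs. Without those cells the level was 6.88 CPM (57 UMIs) in WT and 7.60 CPM (189 UMIs) in the library labelled KO, and the log2 ratio was 0.14 (-0.29 to 0.60). A few cells carried much of the WT sum, since 13 cells with at least 3 Ms4a4c UMIs held 54 of the 116, and 1 cell held 10. In the library labelled KO no cell held more than 3. Thinned to 2000 UMIs per cell, Ms4a4c stood at 7.29 CPM in WT and 9.21 CPM in the library labelled KO, and was detected in 1.41% and 1.76% of cells. Leaving out the same marker-bearing cells hardly moved Ms4a4b (log2 ratio 0.81) or Ms4a6b (1.03).

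The rest of the family was sparse. Together, Ms4a4b and Ms4a6b made up 90.9% of all Ms4a UMIs in WT and 97.1% in the library labelled KO. Of the other 16 genes, 6 had no UMI in either library, 6 had between 1 and 29, and 4 had at least 30. These 4 were Ms4a1, which encodes CD20 (81 UMIs in WT and 87 in the library labelled KO, log2 ratio -1.43), Ms4a4a (56 and 68, -1.25), Ms4a6c (232 and 464, -0.53) and Ms4a6d (51 and 54, -1.45), all lower as CPM in the library labelled KO. Every Ms4a1 UMI lay in the marker-bearing cells, as did 70.7% of the WT Ms4a6c UMIs. With those cells left out, the log2 ratio of Ms4a6c was 0.96, a change of direction like that of Ms4a4c.

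Across γ chain groups of at least 50 cells, those with Tcrg-V6 had the lowest levels. Tcrg-V genes encode the variable part of the γ chain, and a cell was placed in a group when UMIs of exactly 1 of them were detected. WT cells with only Tcrg-V3 (13 cells), Tcrg-V5 (49 cells) or Tcrg-V7 (32 cells) were too few to compare. In WT, Ms4a4b was highest in Tcrg-V1 cells (690.3 CPM in 84 cells, interval 604 to 786) and lowest in Tcrg-V6 cells (130.3 CPM in 520 cells), with Tcrg-V4 cells at 542 CPM (410 cells). Ms4a6b kept that order, at 312 CPM in Tcrg-V1, 205 in Tcrg-V4 and 85.4 in Tcrg-V6 cells. Cells without a Tcrg-V UMI (546 CPM of Ms4a4b in 1094 cells) were within counting error of Tcrg-V4 cells, and for Ms4a6b cells with several Tcrg-V genes (188 CPM in 303 cells) were within counting error of them. Ms4a4c gave 6 UMIs in Tcrg-V1, 22 in Tcrg-V4 and 2 in Tcrg-V6 cells, or 18.2, 13.9 and 1.01 CPM.

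Set directly against each other, Tcrg-V4 cells exceeded Tcrg-V6 cells of the same WT library for all 3 genes. The log2 ratio was 2.06 (1.85 to 2.26) for Ms4a4b, 1.27 (0.99 to 1.54) for Ms4a6b and 3.78 (1.76 to 6.92) for Ms4a4c, so 3 of 3 members were at least 2-fold higher, as were 5.29% of 8133 genes. Tnfrsf18 lay at 114 CPM in Tcrg-V6 and 316 CPM in Tcrg-V4 cells. Without the cells carrying B cell or myeloid markers, Ms4a4c stood at 7.57 CPM in Tcrg-V4 and 1.07 CPM in Tcrg-V6 cells.

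The γ chain groups of the library labelled KO were much more alike. Ms4a4b ranged from 704 CPM in cells with several Tcrg-V genes (770 cells) to 926 CPM in Tcrg-V3 cells (82 cells), with Tcrg-V1 cells at 790.2 CPM (2128 cells), Tcrg-V4 cells at 788 CPM (364 cells) and cells without a Tcrg-V UMI at 811 CPM (3245 cells). The intervals of the last 3 overlapped. Ms4a6b was highest in cells without a Tcrg-V UMI (447 CPM) and stood at 406 CPM in Tcrg-V1 and 368 CPM in Tcrg-V4 cells. Ms4a4c reached no more than 12.1 CPM in any group and had no UMI in Tcrg-V3 cells, where the limit of 3 counts corresponds to 8.99 CPM.

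Within the same γ chain, the ratios of Ms4a4b and Ms4a6b between libraries were smaller than over whole libraries, while those of Ms4a4c were further below 0. For cells with Tcrg-V1 alone the log2 ratio of the library labelled KO over WT was 0.19 (0.00 to 0.39) for Ms4a4b, 0.38 (0.10 to 0.68) for Ms4a6b and -1.37 (-2.57 to 0.13) for Ms4a4c, and 48.9% of genes lay above 0. For cells with Tcrg-V4 alone it was 0.54 (0.41 to 0.67), 0.84 (0.64 to 1.04) and -1.33 (-2.71 to -0.11), and 57.5% of genes lay above 0. Thus 4 of the 6 values lay above 0, those of Ms4a4b and Ms4a6b, a share near the background. Since Tcrg-V4 UMIs go against the KO label, no direction for the deletion follows from the second comparison. Without the marker-bearing cells the Ms4a4c ratio was -0.98 (-2.41 to 0.94) in Tcrg-V1 and -0.38 (-1.90 to 1.07) in Tcrg-V4 cells, both with 0 inside the interval. The Ms4a4b value in Tcrg-V1 cells turned to -0.040 with cells thinned to 1000 UMIs and to -0.021 with chains called from 2 UMIs.

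**Figure D1:**
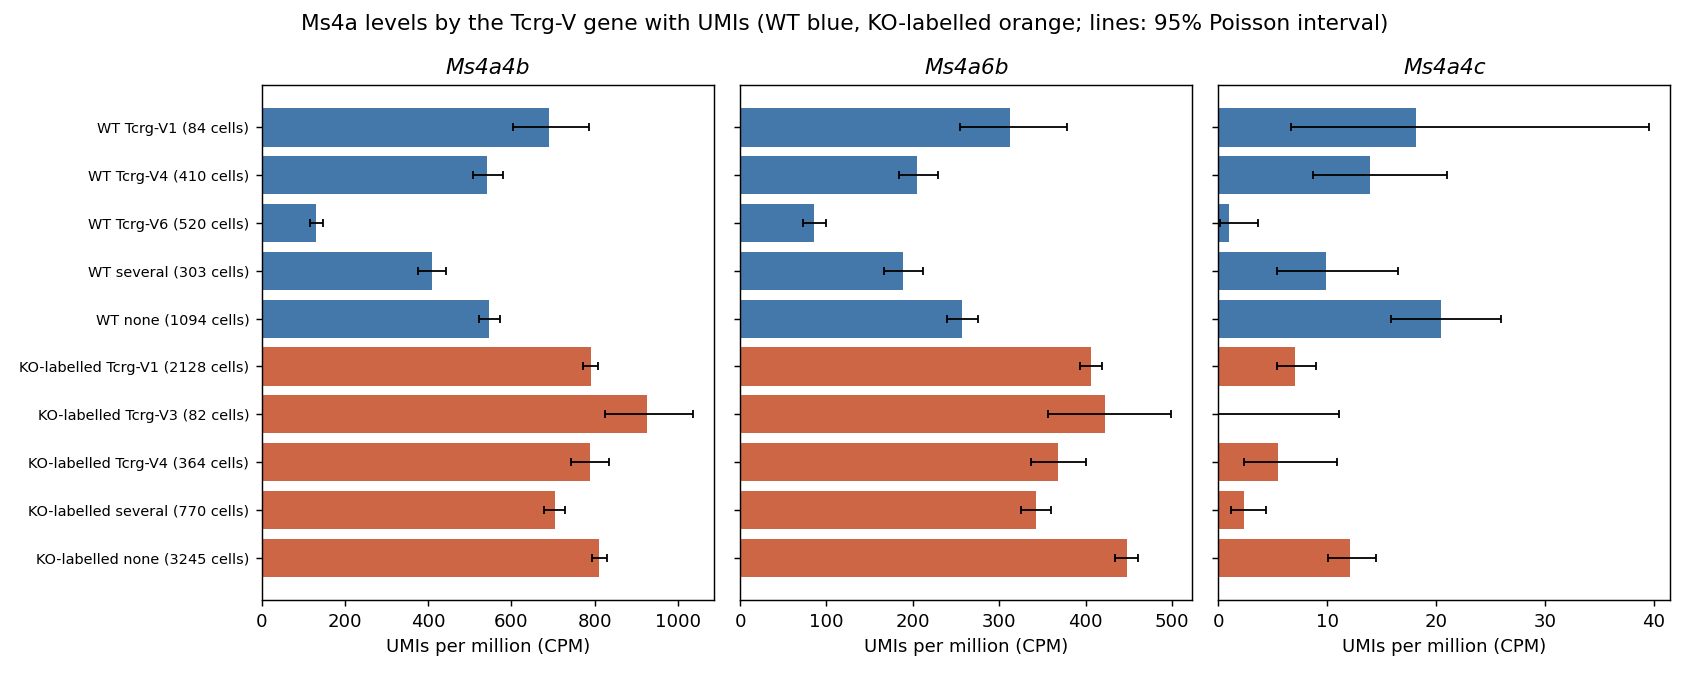
CPM of Ms4a4b, Ms4a6b and Ms4a4c (x axes, each on its own scale) in cells grouped by the Tcrg-V gene with UMIs (rows: 1 gene, several or none; cell numbers in brackets), with WT in blue and the library labelled KO in orange; lines are 95% Poisson intervals of the summed UMIs. WT Tcrg-V6 cells are lowest for all 3 genes among the WT groups, at 130.3, 85.4 and 1.01 CPM.

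The δ chain gave the same picture from the other receptor gene. Trdv4, the variable gene that accompanies Tcrg-V6 in lung γδ T cells, marked the lowest of the 4 single-gene groups for 3 of 3 members in WT, as it did for 29.9% of 9143 genes. Trdv4 cells of WT (701 cells) held 105 CPM of Ms4a4b (interval 93.1 to 119), 62.0 CPM of Ms4a6b and 0.78 CPM of Ms4a4c. The other single-gene groups ran from 465 CPM of Ms4a4b in Trdv5 (379 cells) through 573 in Trdv2-2 (283 cells) to 774 in Trav13-4-dv7 cells (243 cells). Ms4a6b ran from 204 CPM in Trdv5 and 219 in Trdv2-2, which overlapped, to 354 CPM in Trav13-4-dv7. Against all other WT cells with 1 δ variable gene, Trdv4 cells lay at a log2 ratio of -2.49 for Ms4a4b and -2.04 for Ms4a6b. The groups overlap in cells with those set by the γ chain, so the 2 descriptions are not independent.

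With all UMIs counted, Trdv4 cells were also the lowest δ group of the library labelled KO, where they were few. In 87 cells they held 457 CPM of Ms4a4b and 211 CPM of Ms4a6b, against 711 to 940.5 CPM and 270.1 to 507 CPM in the other 6 single-gene groups. Their log2 ratio against the other single-gene cells was -0.78 for Ms4a4b and -0.98 for Ms4a6b. At 2000 UMIs per cell the δ genes were called again, so the cells of each group changed. Trdv4 went from 87 to 60 cells and Trav13-4-dv7 from 246 to 263. In these groups the lowest rank was not held for Ms4a4b. There 60 Trdv4 cells stood at 792 CPM (641 to 968), Trav13-4-dv7 cells at 722 and Trav21-dv12 cells at 789. For Ms4a6b they stayed lowest, at 250 CPM (169 to 357), but the interval overlapped that of Trav21-dv12 cells (308 CPM, 250 to 377). The highest group was Trdv1 (593 cells), at 940.5 CPM of Ms4a4b, 507 CPM of Ms4a6b and 13.7 CPM of Ms4a4c. Cells with Trav21-dv12 (178 cells) combined a middling Ms4a4b level of 738 CPM with 270.1 CPM of Ms4a6b, well below the 395 CPM of Trav15-dv6 cells (935 cells).

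Between libraries, the size of the ratio varied with the δ gene. Taken as a whole, Trav13-4-dv7 cells did not differ beyond counting error. Their log2 ratio was -0.12 (-0.27 to 0.03) for Ms4a4b and 0.19 (-0.02 to 0.41) for Ms4a6b, and 56.4% of all genes lay above 0. Trdv2-2 cells showed 0.49 and 0.93 (54.0% of genes above 0), and Trdv5 cells 0.71 and 0.97 (56.6%). Trdv4 cells showed the widest gap, 2.12 (1.82 to 2.41) for Ms4a4b and 1.76 (1.34 to 2.18) for Ms4a6b (49.6%). Of the 701 Trdv4 cells of WT, 440 had Tcrg-V6 alone, whereas Tcrg-V6 had 0 UMIs in the library labelled KO. The γ chain was therefore not held in this comparison. Ms4a4c moved without a common direction: its ratio was -2.45 in Trav13-4-dv7, 0.85 in Trdv2-2 and -0.66 in Trdv5 cells, and no fold was taken in Trdv4 cells, where 2 UMIs in WT faced 0. Of 11 values that could be had, 8 lay above 0, and 7 of those were of Ms4a4b and Ms4a6b. Without the marker-bearing cells the Ms4a4c ratio of Trdv5 cells turned to 0.52 (-1.21 to 2.44), so that 9 values lay above 0. For Ms4a4c in WT Trav13-4-dv7 cells, leaving out the marker-bearing cells lowered the level from 33.6 CPM (32 UMIs) to 19.1 CPM (17 UMIs).

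**Figure D2:**
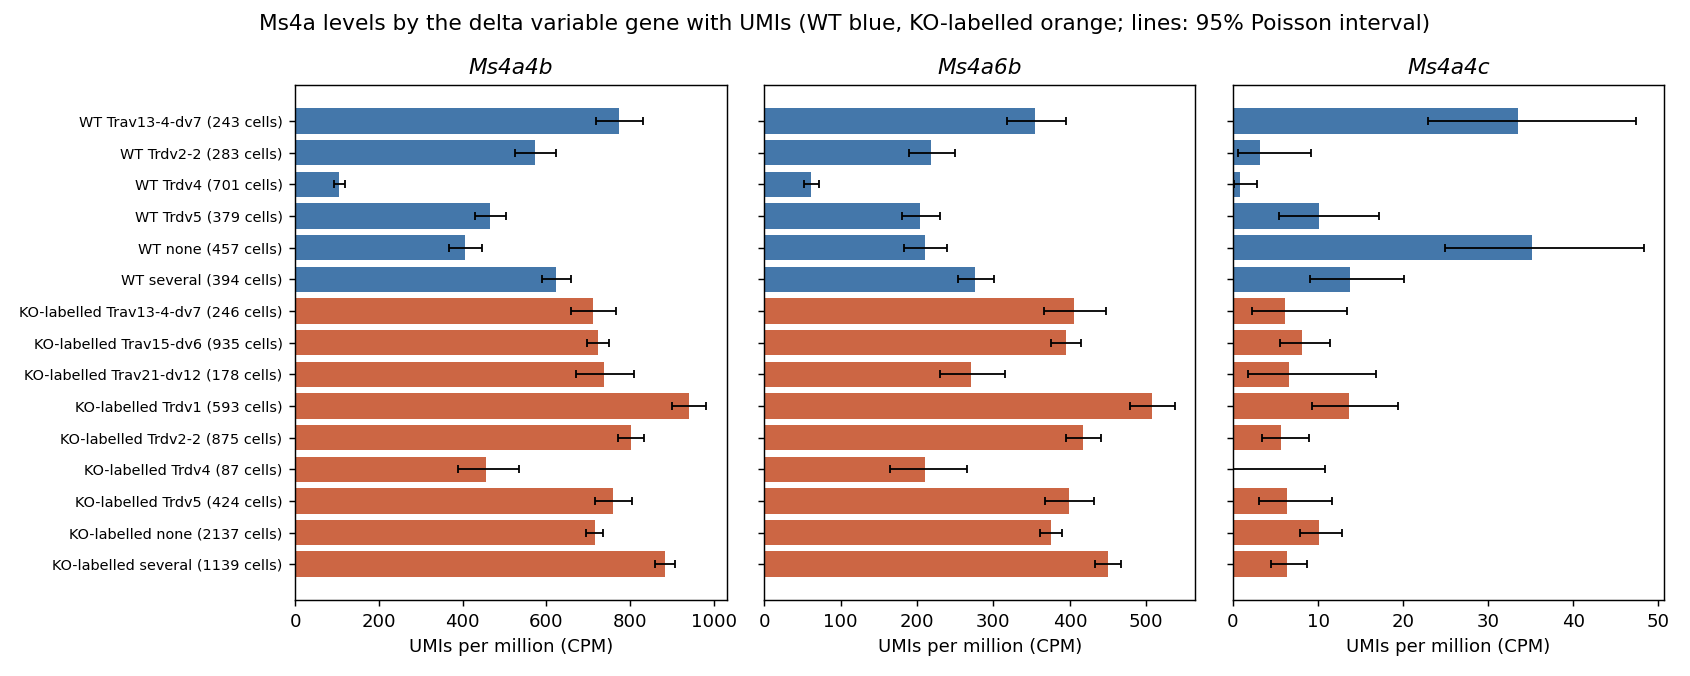
CPM of Ms4a4b, Ms4a6b and Ms4a4c (x axes, each on its own scale) in cells grouped by the δ variable gene with UMIs (rows; cell numbers in brackets), with WT in blue and the library labelled KO in orange; lines are 95% Poisson intervals. With all UMIs counted, Trdv4 cells are lowest for Ms4a4b and Ms4a6b in both libraries. They stand at 105 and 62.0 CPM in WT and at 457 and 211 CPM in the library labelled KO.

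Cells were next split by detection of Tmem176b, a membrane protein gene expressed in IL-17-producing lymphocytes. All 3 members were lower in cells with its UMIs in both libraries. WT cells with a Tmem176b UMI (1176 cells) held 189 CPM of Ms4a4b against 696 CPM in the 1329 cells without, and 91.7 against 311 CPM of Ms4a6b. In the library labelled KO, 1522 cells with Tmem176b UMIs held 330.0 against 952 CPM of Ms4a4b and 172 against 497 CPM of Ms4a6b. The log2 ratio of cells with over cells without was -1.88 in WT and -1.53 in the library labelled KO for Ms4a4b, and -1.76 and -1.53 for Ms4a6b. For Ms4a4c it was -1.15 and -1.32, and without the marker-bearing cells -2.68 and -1.70. Hence 3 of 3 members were at least 2-fold lower in each library, as were 8.64% of 10120 genes in WT and 5.57% of 11580 genes in the library labelled KO. The median of all genes was -0.14 in the WT comparison, and cells with Tmem176b UMIs were deeper (medians of 3564 against 2997 UMIs in WT).

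Tmem176b detection followed the receptor chains. It was found in 88.1% of Tcrg-V6 and 89.0% of Trdv4 cells of WT but in 41.0% of Tcrg-V4, 20.2% of Tcrg-V1 and 11.9% of Trav13-4-dv7 cells. In the library labelled KO it was found in 56.3% of Trdv4 cells, 28.8% of Tcrg-V1 and 11.5% of Trdv1 cells. Within 1 chain the split by Tmem176b remained visible. Among Tcrg-V6 cells of WT, those with Tmem176b held 108 CPM of Ms4a4b and those without held 357 CPM. Tcrg-V4 cells of WT stood at 268 and 719 CPM, and Tcrg-V1 cells of the library labelled KO at 303 and 1011 CPM. Trdv4 cells of the library labelled KO showed the widest range, 157 CPM with Tmem176b (49 cells) and 1022 CPM without (38 cells). Ms4a6b showed the same arrangement, for example 158 and 519 CPM in Tcrg-V1 cells of the library labelled KO.

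Next, Tmem176b detection was held together with 1 chain, γ or δ, while the other chain was left free. For Trdv4 cells with Tmem176b UMIs the gap between libraries narrowed to a log2 ratio of 0.78 for Ms4a4b and 0.82 for Ms4a6b. For those without it remained 1.96 and 1.68. In Tcrg-V4 cells it was 0.45 and 0.91 with Tmem176b and 0.38 and 0.65 without. In Tcrg-V1 cells without Tmem176b it was 0.40 for Ms4a4b and 0.58 for Ms4a6b. For Tcrg-V1 cells with Tmem176b, of which WT had 17, it was -0.51 (-1.01 to 0.04) and -0.32 (-1.05 to 0.53), with 0 inside both intervals. Trav13-4-dv7 cells without Tmem176b gave 0.18 (0.03 to 0.34) and 0.46 (0.24 to 0.69). With Tmem176b UMIs they gave -0.38 (-1.01 to 0.29) and 0.08 (-0.77 to 1.01), from 29 WT cells. A cell with 0 Tmem176b UMIs may still express the gene below the depth reached.

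Ly6c2, which encodes a surface protein of memory and type 1 lymphocytes, had the opposite relation. WT cells with Ly6c2 UMIs (458 cells, median 4214.5 UMIs, against 3129 in the rest) held 739.6 CPM of Ms4a4b against 343 CPM, 321 against 161 CPM of Ms4a6b, and 42.1 against 3.81 CPM of Ms4a4c. The log2 ratios were 1.11, 0.99 and 3.47, so 2 of 3 members were at least 2-fold higher, as were 3.61% of genes. In the library labelled KO (1617 cells with Ly6c2) they were 0.39, 0.28 and 1.67, so 1 of 3 was at least 2-fold higher, against 1.49% of genes. Ms4a4c was the member most tied to Ly6c2: cells with Ly6c2 UMIs were 18.3% of all cells in WT and 24.4% in the library labelled KO, and held 77.6% and 53.3% of its UMIs. Without the marker-bearing cells its log2 ratio was 2.92 (39 against 18 UMIs) in WT and 1.74 in the library labelled KO.

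The Ly6c2 relation of Ms4a4b and Ms4a6b was wider among cells with Tmem176b UMIs. Within those cells the log2 ratio by Ly6c2 was 1.82 for Ms4a4b and 1.96 for Ms4a6b in WT, and 1.29 and 1.47 in the library labelled KO. Within cells lacking Tmem176b UMIs it was 0.29 (0.19 to 0.40) and 0.13 (-0.03 to 0.28) in WT, and 0.09 (0.04 to 0.13) and -0.06 (-0.12 to 0.01) in the library labelled KO. For Ms4a4c it persisted in cells without Tmem176b, at 2.16 (1.40 to 2.97) in WT and 1.39 (0.96 to 1.83) in the library labelled KO. Among WT cells with Tmem176b UMIs, the 54 with Ly6c2 had a median of 6476 UMIs, against 3495.5 in the 1122 without. In the library labelled KO the medians were 4348 (169 cells) and 4177 (1353 cells). These ratios were not taken at equal depth, and no doublet caller was run.

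Cd8b1, the β chain of the CD8 co-receptor, and Ccr9, the receptor for the thymic and gut chemokine CCL25, were read in the same way. WT cells with Cd8b1 UMIs (88 cells) held 729 against 423 CPM of Ms4a4b and 350.4 against 192 CPM of Ms4a6b, log2 ratios of 0.79 and 0.87, and Ms4a4c stood at 1.67, which turned to -1.34 with detection from 2 UMIs. That left 1 of 3 members at least 2-fold higher, beside 4.56% of genes. In the library labelled KO (961 cells with Cd8b1) the ratios were 0.31, 0.69 and 0.17, with 0 of 3 at least 2-fold higher beside 0.760% of genes. There, within cells lacking Tmem176b, Ms4a6b was still higher with Cd8b1 (0.41, interval 0.34 to 0.48) while Ms4a4b was not distinguishable at this depth (0.02, -0.04 to 0.07). In WT cells lacking Tmem176b neither was distinguishable, at 0.17 (-0.02 to 0.34) for Ms4a4b and 0.23 (-0.04 to 0.49) for Ms4a6b.

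Ccr9 divided the members. Cells with Ccr9 UMIs (245 WT cells and 1146 KO-labelled cells) had more Ms4a4b (log2 ratio 0.56 in WT and 0.09 in the library labelled KO) and more Ms4a6b (0.72 and 0.22), but less Ms4a4c (-1.11 and -0.78). None of the 3 members was at least 2-fold higher, beside 2.31% of genes in WT and 0.846% in the library labelled KO. Without the marker-bearing cells the Ms4a4c ratio was 0.03 in WT and -0.88 in the library labelled KO. By direction alone, 6 of 6 values lay above 0 for Ly6c2, beside 39.7% of genes in WT and 35.5% in the library labelled KO. For Cd8b1 it was also 6 of 6, beside 46.1% and 39.4%, although the KO-labelled Ms4a4c value of 0.17 had 0 inside its interval (-0.39 to 0.68). For Ccr9 it was 4 of 6, beside 53.0% and 58.0%, and for Tmem176b 0 of 6, beside 39.3% and 42.1%.

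**Figure D3:**
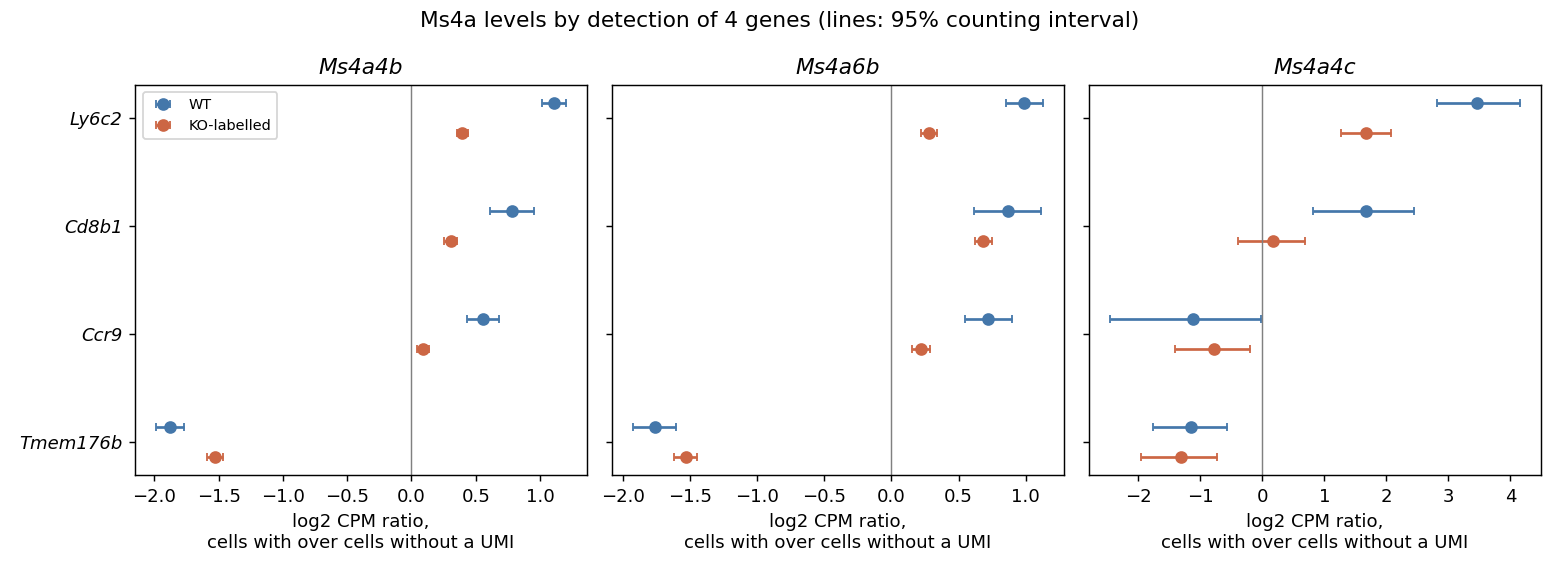
Log2 CPM ratio of cells with over cells without a UMI of Ly6c2, Cd8b1, Ccr9 or Tmem176b (rows) for Ms4a4b, Ms4a6b and Ms4a4c (panels, each x axis on its own scale), with WT in blue and the library labelled KO in orange and 95% counting intervals as lines. The Tmem176b points lie left of 0 in every panel, from -1.88 to -1.15, and Ms4a4c has its highest point at Ly6c2 in WT, 3.47.

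The ratio between the libraries was then set out by kind of cell. Among cells with Tmem176b UMIs the log2 ratio of the library labelled KO over WT was 0.80 for Ms4a4b and 0.91 for Ms4a6b, and among cells without it was 0.45 and 0.67. Among cells with Ly6c2 UMIs it was 0.36 and 0.56, and among cells without 1.08 and 1.26. Leaving out of WT every cell with a Tcrg-V6 or Trdv4 UMI brought the ratio against all KO-labelled cells to 0.40 and 0.65. In each of these sets except cells without Ly6c2 UMIs the ratio was smaller than between the whole libraries, and in each it lay above 0.

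**Figure D4:**
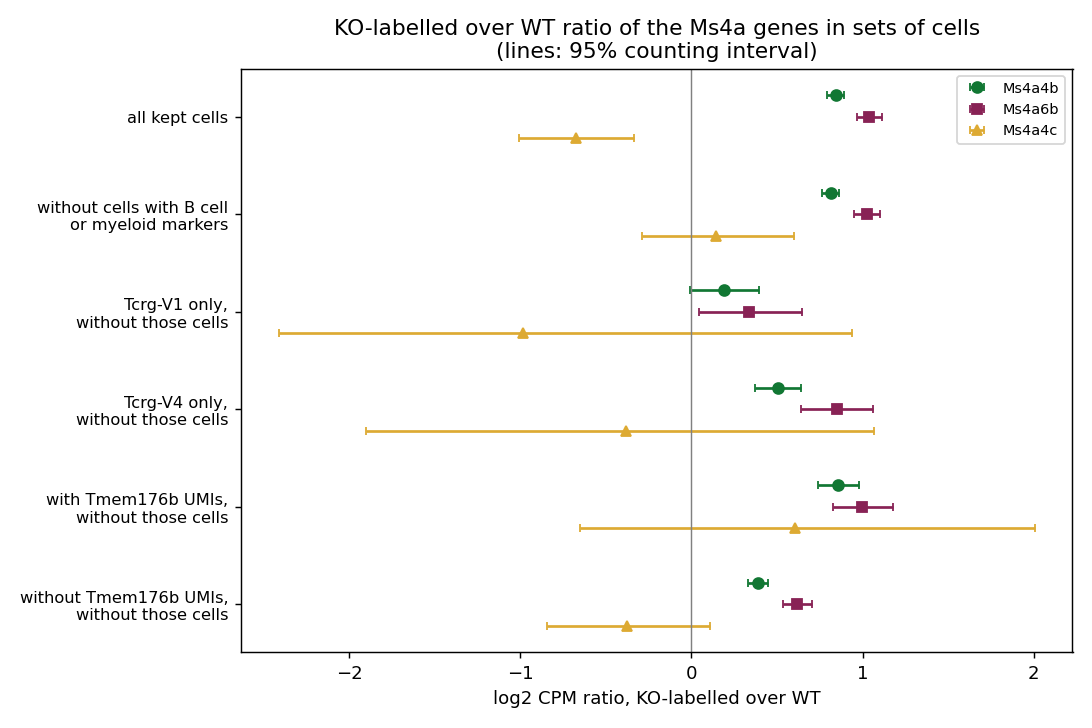
Log2 CPM ratio of the library labelled KO over WT (x axis) for Ms4a4b (green circles), Ms4a6b (purple squares) and Ms4a4c (yellow triangles) in sets of cells (rows), with 95% counting intervals; lower rows also leave out cells with at least 2 B cell or 2 myeloid markers. Ms4a4b and Ms4a6b lie right of 0 in every row, although the interval of Ms4a4b reaches 0 for Tcrg-V1 cells, whereas Ms4a4c goes from -0.67 in all cells to 0.14 without the marker-bearing cells.

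Ms4a4b and Ms4a6b were high and low in the same finer groups. Crossing library, γ group and δ group gave 38 groups of at least 50 cells, 14 in WT and 24 in the library labelled KO. Ms4a4b ran from 86.8 CPM in WT cells with Tcrg-V6 and Trdv4 to 999 CPM in KO-labelled cells with Tcrg-V1 and Trdv1, and Ms4a6b from 57.9 to 541 CPM in the same groups. Ms4a4b UMIs per Ms4a6b UMI stayed between 1.5 and 3.88, with a median of 2.07. Pearson's r of log2(CPM + 1) over the 38 groups was 0.93 between Ms4a4b and Ms4a6b, 0.44 between Ms4a4b and Ms4a4c and 0.52 between Ms4a6b and Ms4a4c. Groups of 1 library share its depth, preparation and sort, so these values are descriptions without a test. The pairing was visible in single cells too: at 2000 UMIs per cell, Ms4a4b was detected in 62.6% of WT cells with Ms4a6b and 31.3% of those without, and in 79.0% and 50.9% of KO-labelled cells.

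Among 5938 genes with a mean of at least 20 CPM over the same groups, those most like Ms4a4b were Tcf7, which encodes the T cell transcription factor TCF1 (r = 0.97), Gimap6, a small GTPase gene of lymphocytes (0.96), and Actn1, an actin-crosslinking protein gene (0.96). Those most like Ms4a6b were Tubb5, a β-tubulin gene, Tcf7 and Dgka, a diacylglycerol kinase gene (0.94 each). Those most like Ms4a4c were Atp11b, a phospholipid flippase gene (0.74), Ms4a6c (0.73) and Epsti1, an interferon-induced gene (0.68). All kept cells entered these values, with the marker-bearing cells that held 50.9% of the WT Ms4a4c and 70.7% of the WT Ms4a6c UMIs. The group highest in Ms4a4c was WT cells without a Tcrg-V or δ variable gene UMI (344 cells, 36 UMIs, 47.7 CPM). Tmem176b had r of -0.75 with Ms4a4b, -0.72 with Ms4a6b and -0.66 with Ms4a4c. Tnfrsf18 had 0.85, 0.79 and 0.37.

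**Figure D5:**
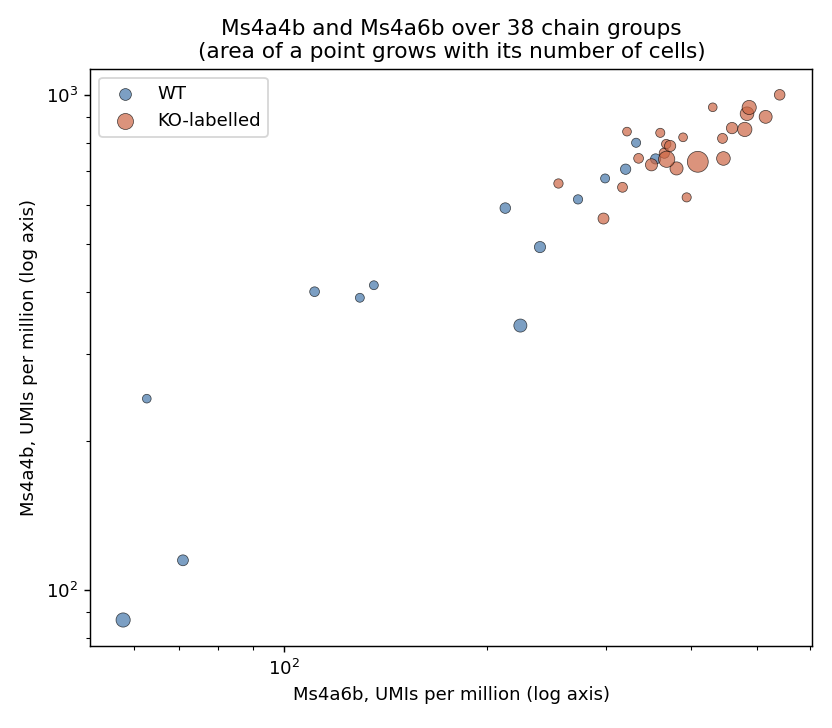
Ms4a4b against Ms4a6b level (both axes in CPM, logarithmic) in 38 groups of cells by library, γ group and δ group, with WT in blue, the library labelled KO in orange and the area of a point growing with its number of cells. The points rise together (r = 0.93), and the lowest are WT groups with Trdv4, down to 86.8 CPM of Ms4a4b and 57.9 CPM of Ms4a6b.

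A further 12 genes that mark T cell states were read the same way, as cells with over cells without a UMI. Ms4a4b and Ms4a6b were higher with the recirculation genes S1pr1, the lymph egress receptor (1.06 and 1.08 in WT, 0.69 and 0.64 in the library labelled KO), and Ccr7, the lymph node homing receptor (1.13 and 1.42, 0.59 and 0.82). They were lower with the cytokine gene Il17a (-1.93 and -2.02, -2.29 and -2.17) and with Zbtb16, which encodes the innate-like T cell factor PLZF (-1.59 and -1.49, -0.71 and -0.79). With Cd44, an activation and memory marker, both were lower by a similar amount in the 2 libraries (-0.99 and -1.02, -0.99 and -1.21). With Cd27, a costimulatory receptor of interferon-γ-producing γδ T cells, the ratios were 1.42 and 1.25 in WT and 0.19 and 0.05 in the library labelled KO.

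The other 6 state genes gave values of mixed size. With Cd24a, a marker of immature cells, the ratios were 0.76 for Ms4a4b and 0.87 for Ms4a6b in WT and 0.21 and 0.14 in the library labelled KO. The type 1 genes Tbx21 and Eomes, which encode T-box factors, stood at 0.65 and 0.95 for Ms4a4b in WT and at 0.05 and 0.27 in the library labelled KO. Gzma, which encodes a cytotoxic granule protease, stood at 0.80 and 0.06 and the chemokine receptor gene Cxcr3 at 0.25 and -0.03. Isg15, an interferon-stimulated gene, went with slightly less Ms4a4b (-0.16 and -0.40) and Ms4a6b (-0.26 and -0.49). Ms4a4c was higher with Isg15 (1.06) and Cd44 (1.24) in WT, and without the marker-bearing cells these values were -0.11 and -0.01, in the library labelled KO -0.36 and -0.44 with all cells kept.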

How the data were processed

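Lung γδ T cells were profiled in 2 droplet libraries, 1 per group, with 5′ V(D)J kits per the study's methods and a 3′ protocol per the labels. The deposited matrices hold whole-number UMI counts per gene and cell, which the authors made with Cell Ranger (7.0 per the labels, 7.0.0 in the file headers, an earlier version per the study's methods) on mm10, with no normalization. Whether introns and both strands were counted was not given in the sources used here. Cells with over 200 and under 4000 genes and under 10% mitochondrial UMIs were kept, 2505 of 2520 WT and 6634 of 6688 KO-labelled barcodes (8971636 and 25908306 UMIs). No doublet caller was run.

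UMIs were summed over cells and given as counts per 1000000 UMIs (CPM) with exact Poisson intervals, shares with exact Clopper-Pearson intervals, and log2 ratios with exact conditional intervals, all at 95%, without prior counts. With 1 library per group there was no test and no p-value. Comparisons across genes used genes with at least 30 UMIs over both sums; for chain groups, at least 50 cells were required. A sum of 0 was given the limit of 3 counts. Chain groups hold cells with UMIs of exactly 1 Tcrg-V or 1 δ variable gene, the Trav15 dv6 genes counted as 1. For comparisons at equal depth, cells were thinned to 2000 UMIs. Chain and detection groups were then called again on the thinned counts, so their cells differ from those at full depth. Cells with at least 2 B cell or 2 myeloid markers are the marker-bearing cells. Named genes were the 3 members, the Ms4a family, the 4 detection genes, Tnfrsf18, a list of T cell state genes of which 2 are not reported here, and the 3 genes most correlated with each member (log2(CPM + 1), mean of at least 20 CPM, without receptor, immunoglobulin, mitochondrial, ribosomal and sex-linked genes). Members, lists and alternatives were chosen with earlier results of these data known. Positions came from GENCODE M21, matched for 32158 of 32285 gene identifiers. Python 3.11.15, numpy 2.4.6, scipy 1.17.1, pandas 2.3.3 and biopython 1.88 were used, and the ratios and thinning were tested on simulated data. The alternatives were other filters, chain and detection minimums, thinning, the mean of single-cell values, and leaving out cells by depth or markers.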

Additional observations from a re-analysis of the deposited data

Results flagged for a closer look

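For Ms4a6b, 2 of the 48 combinations of a member with a detection or state gene went in opposite directions in the libraries, each with both intervals off 0. Cells with Tbx21 UMIs had more Ms4a6b than cells without in WT (log2 ratio 0.35) and less in the library labelled KO (-0.30). With Cxcr3 the ratios were 0.24 in WT and -0.19 in the library labelled KO. Without the marker-bearing cells they were 0.33 and -0.29 for Tbx21 and 0.21 and -0.20 for Cxcr3. At 2000 UMIs per cell the WT ratio was -0.27 (-0.82 to 0.23) for Tbx21 and 0.04 (-0.30 to 0.36) for Cxcr3, with -0.38 and -0.28 in the library labelled KO, so the opposite directions were not held at equal depth. With 1 library per group the difference was not tested.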

How the results depend on the processing

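No paired analysis was possible because a single library stood for either group. For the same reason no replicate could be left out. The 13 alternatives were applied to ratios between libraries, between chain groups and by Ly6c2, Cd8b1, Ccr9 or Tmem176b detection. Among those values Ms4a6b kept its direction in all 191, Ms4a4b in 189 of 191 and Ms4a4c in 158 of 170. Ratios by the other T cell state genes were not among them. For example, the Ms4a6b ratio by Tbx21 detection in WT changed from 0.35 to -0.27 (-0.82 to 0.23) thinned to 2000 UMIs. The log2 ratio of the library labelled KO over WT for Ms4a4c changed from -0.67 to 0.14 without the marker-bearing cells, to 0.34 with cells thinned to 2000 UMIs and to 0.53 at 1000 UMIs, was -0.27 without the 5% of cells with most UMIs, -0.23 as a mean of single-cell CPM, and -1.03 in cells with Xist and no Y-linked UMI. For Ms4a4b it was 0.90 without the deepest cells, 0.95 as a mean of single-cell CPM, and 0.96 and 0.94 thinned to 2000 and 1000 UMIs. For Ms4a6b it was 1.16 as a mean of single-cell CPM and 1.14 thinned to 2000 UMIs. In Tcrg-V1 cells the Ms4a4b ratio changed from 0.19 to -0.040 thinned to 1000 UMIs and to -0.021 with chains called from 2 UMIs. The Ms4a4c ratio in WT changed for Ccr9 from -1.11 to 0.027 without the marker-bearing cells, and for Cd8b1 from 1.67 to -1.34 with detection from 2 UMIs. The Ms4a4c ratio between libraries in Trdv5 cells changed from -0.66 to 0.52 without the marker-bearing cells, 0.59 without the deepest cells, 0.93 as a mean of single-cell CPM and 2.75 thinned to 2000 UMIs, and in Trdv2-2 cells from 0.85 to -0.25 in cells with Xist and no Y-linked UMI. The Ms4a4c ratio by Cd8b1 detection in the library labelled KO changed from 0.17 to -0.50 with detection from 2 UMIs and to -0.045 thinned to 1000 UMIs. The cause was not tested. Depth limits Ms4a4c, which had 2 UMIs each in the WT Tcrg-V6 and Trdv4 groups.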

Other observations

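Tnfrsf18, the gene of GITR, followed Ms4a4b in part, and among the single δ gene groups of WT was likewise lowest in Trdv4 cells. It stood at 241.8 CPM in WT and 356.6 CPM in the library labelled KO, a log2 ratio of 0.56 (0.49 to 0.63). WT Trdv4 cells held 99.5 CPM of it, against 279 CPM in Trdv2-2, 352 in Trdv5 and 354 in Trav13-4-dv7 cells. In the library labelled KO, Trdv4 cells held 287 CPM (233 to 350), and the other single δ gene groups 331 to 395 CPM. The Trdv4 interval overlapped those of the other groups, such as Trdv1 (308 to 355). Against all other cells with 1 δ variable gene together, the log2 ratio there was -0.31 (-0.62 to -0.02). By Tmem176b detection its log2 ratio was -0.85 in WT and -0.35 in the library labelled KO, and by Ly6c2 detection 0.61 and 0.11. Cd8b1 detection went with 0.39 in WT and -0.15 in the library labelled KO. With Tbx21 in WT it stood at -0.41, where Ms4a4b stood at 0.65, and WT Trdv5 cells had more Tnfrsf18 but less Ms4a4b than Trdv2-2 cells.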
